A study of Mus musculus with 24 samples.

Results

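Described here are 10 genes of the activator protein 1 (AP-1) and immediate early class: Fos, Fosb, Fosl1, Fosl2, Jun, Junb, Jund, Egr1, Ier2 and Ier3. They were taken by symbol from the deposited counts table, where each has a row, and make up 10 of its 49568 gene symbols. The libraries come from NIH/3T3 cells, an established mouse fibroblast line grown in 10% bovine calf serum, that were kept for 24 h with halofuginone (100 nM in the labels) or with the same volume of PBS as vehicle. Halofuginone blocks the prolyl site of Eprs, the synthetase that charges glutamate and proline tRNAs. RNA was read as polyadenylated RNA from whole cells (total RNA) and from gradient fractions pooled into a ribosome-free pool (free mRNA and ribosomal subunits), light polysomes and heavy polysomes (more than 5 ribosomes). The 2 treatments and 4 kinds of RNA give 8 groups of 3 libraries, which the study describes as biological replicates of this 1 cell line.

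AP-1 is a dimer of a Jun protein with a Fos protein, or of Jun proteins with each other, that binds DNA and controls genes of growth, stress and matrix turnover. Several of its subunits, and the other genes followed here, are known as immediate early genes. Serum or stress switches such genes on through factors already present in the cell. Their mRNAs are usually short-lived, in part through AU-rich elements in the 3′ untranslated region (UTR). Not every subunit is of this kind, and Jund is known in general as the most steadily expressed Jun gene. Which of the genes are switched on in this way in these cells was not tested. Protein synthesis inhibitors are known to raise immediate early mRNAs above the level that the stimulus alone gives.

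Sequences of the kinds known to take part in such regulation, AU-rich 3′ UTR sites and promoter windows, are shown for Fos, Fosl2 and Jun; the data here do not test them. Of the 10 genes, Fos and Fosl2 hold the AU-rich nonamer TTATTTATT in the 3′ UTR of the GENCODE M21 transcript, which 7.84% of 10646 coding genes tested in total RNA also hold (DNA letters of the transcript's strand, 1 strand searched, nonamer in capitals with 10 bases on each side). The site of Fos lies at chr12:85477103-85477131 on the plus strand of GRCm38, 655 bases after the stop codon, and that of Fosl2 at chr5:32156871-32156899 on the plus strand, 3692 bases after it.
Fos 3′ UTR site: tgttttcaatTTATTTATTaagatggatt
Fosl2 3′ UTR site: atttattttaTTATTTATTttaaatgttt
The shorter pentamer ATTTA was densest in the 3′ UTR of Ier3, at 8.16 per kilobase, and of Fos, at 4.91, and absent from that of Ier2. The median over the 10 genes was 1.80 per kilobase, against 1.36 over the tested coding genes. A motif match is a description of the letters only.

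The 250 bases before the transcription start of Fos and Jun are printed because these 2 genes fell together in total RNA of the libraries called set B below (RefSeq, GRCm38.p6). The window of Fos is chr12:85473640-85473889 on the plus strand, and that of Jun is chr4:95052223-95052472 on the minus strand. Capitals mark TGACGTAG, 66 to 59 bases before the start of Fos, and TGACATCA, 45 to 38 bases before the start of Jun, both relatives of the AP-1 and cyclic AMP response motifs. These 2 motifs were picked after reading the windows; on either strand they occur in 0.329% and 2.93% of 32851 promoters of the same length.
Fos promoter: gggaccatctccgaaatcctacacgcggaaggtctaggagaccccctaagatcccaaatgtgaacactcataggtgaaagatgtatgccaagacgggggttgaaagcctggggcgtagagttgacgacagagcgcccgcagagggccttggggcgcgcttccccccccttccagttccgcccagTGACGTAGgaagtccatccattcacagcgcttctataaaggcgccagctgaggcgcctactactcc
Jun promoter: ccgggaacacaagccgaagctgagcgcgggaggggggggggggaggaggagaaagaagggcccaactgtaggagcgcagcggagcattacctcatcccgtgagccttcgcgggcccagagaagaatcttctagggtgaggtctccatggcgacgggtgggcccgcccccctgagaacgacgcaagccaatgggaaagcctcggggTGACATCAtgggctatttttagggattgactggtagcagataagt
The table holds 7 of the 10 promoters (not Fosl1, Egr1 or Ier2). In none of the 7 windows were the letters TGACTCA (4.46% of all promoters), TGACGTCA (1.55%) or a CArG box (1.47%) found on either strand. Bases outside the windows were not searched. The RefSeq window of Jund, chr8:70697489-70697738, ends well before its GENCODE span, which starts at 70698949. That of Fosl2, chr5:32136222-32136471, lies inside its span. Fos spans chr12:85473890-85477273, Jun chr4:95049034-95052222, Fosl1 chr19:5447547-5455946 and Fosl2 chr5:32135801-32157842 in GRCm38. Junb, Jund and Ier2 lie on chromosome 8. In gene structure Jun, Junb, Jund and Ier2 are single-exon genes, as are 2.25% of 11337 genes tested in total RNA. The coding regions of 9 of the 10, from 480 bases in Ier3 and 663 in Ier2 to 1140 in Fos, are below the median of 1416 bases over those genes, and that of Egr1, at 1599 bases, is above it. Fosl1 overlaps Ccdc85b, Jun overlaps the antisense Junos, Junb overlaps Prdx2 and Jund overlaps the antisense Gm11175. How strand was used in counting is not given in the sources used here. Reads from a stretch that 1 of these 4 genes shares with its partner may therefore not be told apart. The overlap is of gene spans, and how much exon is shared was not examined.

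Depth was 10.3 to 25 megacounts per library. By their column headers, 8 libraries, 1 in each group, were taken as a set A, since they lack the replicate number that the other 16 carry. Of set A, the total RNA headers hold a date-like tag, the pool headers hold none, and the halofuginone headers give 50 nM. The other 16 form set B, with tags 2 and 3 in total RNA and 2 and 4 in the pools. Set A is treated as 1 tag, which the headers do not state. The dose in set A was not settled here. For each pool the headers of set A name other gradient fractions than those of set B, so the cuts may differ. Mitochondrial RNA held 8.69 and 11.1% of the ribosome-free counts in set A and 22.9 to 34.9% in set B. Spreads and tests over the 3 libraries of a pool include any such difference, whose part was not tested. Libraries were compared as groups of 3 unless set B is named, and values are listed in the order set A, tag 2, tag 3 or 4. In total RNA the 2 set B libraries with halofuginone lay close together, their mean chi-square being 3.12 per gene, against 21.1 for the next closest pair of the study. All 9 fibroblast markers reached 5 CPM (a gene's counts per megacount of its library) in every group, and no epithelial or endothelial marker did. Of 6 leukocyte markers, Cd68 reached it, in vehicle heavy polysomes, where that list summed to 5.53 to 8.38 CPM. The summed fibroblast markers were 17400 to 20200 CPM in vehicle and 13700 to 17700 CPM with halofuginone in total RNA.

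In vehicle total RNA Fos and Fosb were barely present, while Jun, Fosl1 and Ier3 led. Per kilobase of exon, Ier3, a small stress-induced protein, stood at 61.4 ± 5.55 CPM per kilobase (SD, n = 3). Jun at 47.5 ± 5.74 and Fosl1, which encodes Fra-1, at 46.1 ± 4.62 CPM per kilobase followed, and the ranges of these 2 overlapped. Junb (30.9), Jund (25.9) and Fosl2 (21.3 CPM per kilobase), which encodes Fra-2, came next, each clear of its neighbours. Ier2 (13.6) and Egr1 (12.1) overlapped, and Fos (0.599) and Fosb (0.201 CPM per kilobase) were the lowest. With halofuginone the order in total RNA became Fosl1 (90.9 ± 33.2), Ier3 (52.8) and Junb (41.4 CPM per kilobase), with overlapping ranges down to Ier2.

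**Figure D1:**
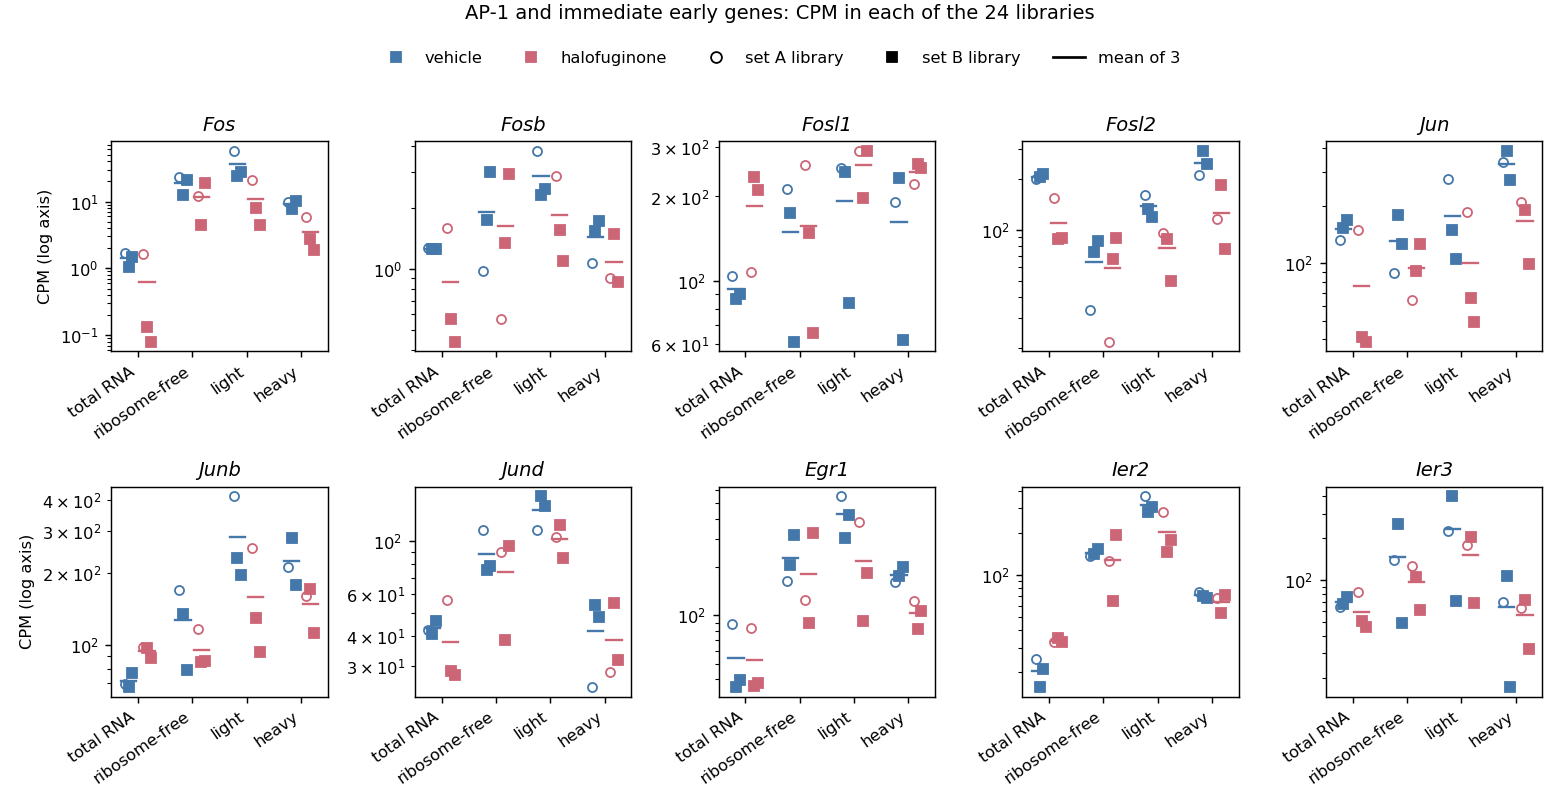
CPM (log axis) of the 10 genes in total RNA and the 3 gradient pools; blue is vehicle, red is halofuginone, open circles are set A, filled squares are set B, and bars are means of 3 libraries. In total RNA the halofuginone library of set A sits at or near the vehicle level for Fos and Jun (1.64 and 149 CPM), far above the set B libraries, while Fos is higher in every pool library than in any vehicle total RNA library.

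Between treatments in total RNA, with set A and set B together, none of the 10 genes passed the test. The quasi-likelihood test in edgeR, adjusted by Benjamini-Hochberg, called 0.0% of 13020 genes there, with 2292 (17.6%) at an unadjusted p under 0.05, and DESeq2 called 3.96%. Of the 10 genes, 4 had an unadjusted p under 0.05 in edgeR, and DESeq2 called Fosl2 (lower) and Junb (higher). Without the halofuginone library of set A, edgeR called 8246 genes and 9 of the 10. Each gene is therefore given in every library. In such bulk libraries, fewer cells with an mRNA and less of it per cell cannot be told apart.

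Of the Fos family, Fosl1 held 104, 86.6 and 90.2 CPM in vehicle and 108, 235 and 211 CPM with halofuginone. All 3 halofuginone libraries were above all 3 vehicle libraries, by a log2 fold change of 1.04 ± 0.32 (SE, edgeR's adjusted p = 0.267), and the set A library only just. Fosl2 held 198, 205 and 215 CPM in vehicle and 153, 88.0 and 89.3 CPM with halofuginone. Every halofuginone value was below every vehicle value, with a log2 fold change of -0.85 ± 0.24 (edgeR's adjusted p = 0.267). Fos, the first described member, held 1.71, 1.03 and 1.48 CPM in vehicle and 1.64, 0.131 and 0.0801 CPM with halofuginone. The set B libraries with halofuginone together held 5 Fos counts, against 50 in vehicle, a ratio of vehicle to halofuginone of 11.8 (95% exact counting interval 4.72 to 37.8, for counting error only). The set A values of Fos were alike in both treatments. Over all 3 libraries per group its log2 fold change was -1.16 ± 1.02 (edgeR's adjusted p = 0.507). Fosb was at or under 1.59 CPM in every total RNA library.

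Of the Jun family, Jun held 132, 154 and 169 CPM in vehicle and 149, 41.3 and 38.9 CPM with halofuginone. The set B libraries lay well below vehicle and the set A library lay within its range, giving a log2 fold change of -0.94 ± 0.53 (edgeR's adjusted p = 0.352). Junb, a Jun protein with weaker transactivation, held 69.4, 67.1 and 76.9 CPM in vehicle and 98.5, 98.0 and 89.0 CPM with halofuginone. Here the sets went the same way and the groups did not overlap, with a log2 fold change of 0.48 ± 0.13 (edgeR's adjusted p = 0.267). Jund held 42.4, 40.8 and 46.6 CPM in vehicle and 57.0, 28.6 and 27.6 CPM with halofuginone, so that set A and set B lay on opposite sides of vehicle.

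Of the remaining genes, Ier2, a nuclear immediate early protein, held 24.9, 15.7 and 21.2 CPM in vehicle and 32.8, 35.3 and 32.8 CPM with halofuginone. The groups did not overlap, and the log2 fold change was 0.77 ± 0.21 (edgeR's adjusted p = 0.267). Egr1, a zinc finger factor induced by serum, held 87.7, 35.6 and 39.6 CPM in vehicle and 83.2, 36.1 and 38.0 CPM with halofuginone, high in set A and lower in set B under both treatments. Ier3 held 64.0, 68.1 and 76.3 CPM in vehicle and 81.8, 51.2 and 46.2 CPM with halofuginone, again with set A and set B on opposite sides. In all, the groups of 4 genes did not overlap (Fosl1, Junb and Ier2 above vehicle, Fosl2 below), against 23.4% of all genes tested.

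Within set B alone, 9 of the 10 genes were called in total RNA, against 70.0% of 13334 genes, and these p-values rest on 2 libraries per group. The 2 halofuginone libraries are the unusually close pair named above, and whether they were separate cultures was not settled here. If they were not, these p-values do not measure the spread between cultures. Fosl1 (log2 fold change 1.38 ± 0.08, edgeR's adjusted p = 3.9e-06), Ier2 (0.94 ± 0.13) and Junb (0.42 ± 0.09) were higher, as were 33.1% of all genes. Jun was lower by -1.96 ± 0.08 on the log2 scale (edgeR's adjusted p = 7.3e-07), and Fos by -3.46 ± 0.49. Fosb (-1.27 ± 0.32), Fosl2 (-1.20 ± 0.07), Jund (-0.59 ± 0.09) and Ier3 (-0.52 ± 0.09) were also lower, as were 36.9% of all genes. Egr1, at 0.02 ± 0.08, was not called. Thus within set B the AP-1 subunits split, with Fosl1 and Junb higher and Fos, Fosb, Fosl2, Jun and Jund lower.

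**Figure D2:**
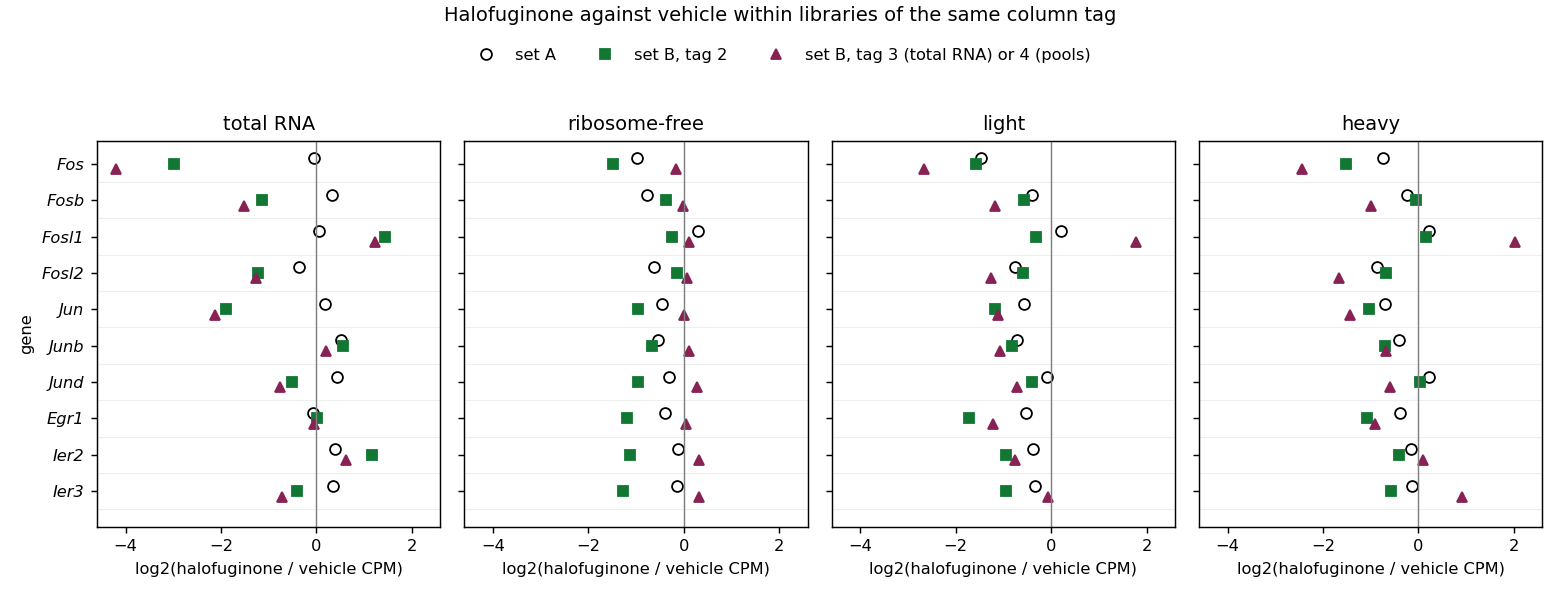
Log2 ratio of halofuginone to vehicle CPM for each gene within libraries of the same column tag, in total RNA and the 3 pools (open circle set A, square tag 2, triangle tag 3 or 4). In total RNA the set A ratios of Fos, Fosb, Fosl1, Fosl2, Jun, Jund and Ier3 lie apart from those of set B. The ratio of Fosl1 is 0.0476 in set A against 1.44 and 1.23 in set B. That of Fosl2 is -0.371 against -1.22 and -1.27. In light polysomes 9 of the 10 genes have all 3 ratios below 0.

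In each of the 3 pools, the ribosome-free pool included, 9 of the 10 genes had an estimate below 0 with halofuginone against vehicle, and none passed the test. In light polysomes Fos held 56.9, 24.0 and 28.1 CPM in vehicle and 20.7, 8.06 and 4.40 CPM with halofuginone. The groups did not overlap and halofuginone was lower within each tag, with a log2 fold change of -1.67 ± 0.58 (edgeR's adjusted p = 0.981). Ier2 went from 363, 281 and 304 CPM to 280, 146 and 178 CPM, and Fosl2 from 161, 132 and 119 to 95.9, 87.9 and 49.9 CPM. These 2 genes also did not overlap, although the highest halofuginone value of Ier2 (280 CPM) lay just under the lowest of vehicle (281 CPM). Egr1 went from 549, 303 and 422 CPM to 383, 91.6 and 182 CPM (log2 fold change -0.90 ± 0.51), with overlap. Junb (-0.77 ± 0.44), Jun (-0.77 ± 0.55), Jund (-0.34 ± 0.25) and Fosb (-0.57 ± 0.50) were lower within each tag as well. None passed the edgeR test, which called 0.0% of 12632 genes (DESeq2 0.309%); 2 of the 10 had an unadjusted p under 0.05, against 4.27% of all genes. In all, 3 genes were lower without overlap, against 7.43% of all genes, and 9 were lower in all 3 same-tag pairs, against 28.9%.

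In heavy polysomes 5 genes separated the treatments. Jun held 340, 386 and 271 CPM in vehicle and 209, 189 and 99.5 CPM with halofuginone. All halofuginone values were below all vehicle values (log2 fold change -0.97 ± 0.32, edgeR's adjusted p = 0.792). Fosl2 went from 211, 292 and 245 to 115, 183 and 76.8 CPM (-0.98 ± 0.31), and Fos from 9.87, 7.85 and 10.1 to 5.94, 2.76 and 1.85 CPM (-1.35 ± 0.47). Egr1 went from 160, 175 and 198 to 122, 82.6 and 106 CPM (-0.73 ± 0.27), and Junb from 212, 279 and 179 to 161, 171 and 112 CPM (-0.56 ± 0.26). These were the 5 lower without overlap, against 7.37% of all genes, and 6 were lower in all 3 same-tag pairs, against 27.0%. The edgeR test called 0.0% of 12222 genes (DESeq2 0.638%); 4 of the 10 had an unadjusted p under 0.05, against 6.17% of all genes. The summed fibroblast markers lay in a lower range with halofuginone here too, at 4710 to 11300 against 6830 to 15800 CPM. In light polysomes they lay at 3400 to 7950 against 6140 to 9900 CPM. Both pairs of ranges overlapped. The part of the markers in the differences of the 10 genes was not tested.

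Fosl1 was the only one of the 10 with an estimate above 0 in the pools, and it was above 0 in each of the 3. In the ribosome-free pool, however, its estimate lay within 1 SE of 0 and was below 0 in set B alone. In heavy polysomes it held 191, 233 and 61.8 CPM in vehicle and 222, 262 and 251 CPM with halofuginone, a log2 fold change of 0.64 ± 0.44. Its same-tag log2 ratios were 0.21, 0.17 and 2.02 there and 0.20, -0.31 and 1.79 in light polysomes, so that the vehicle libraries of tag 4 set the size. Per kilobase it ranked above the other 9 genes in halofuginone heavy polysomes, at 120.5 ± 10.1 CPM per kilobase, without overlap with Junb (64.3). In the ribosome-free pool none of the 10 separated the groups, and their median log2 fold change was -0.34, against -0.0014 over all genes: edgeR and DESeq2 each called 0.0% of 11960 genes, and 0 of the 10 had an unadjusted p under 0.05 in edgeR, against 0.251% of all genes. Fos, for example, held 23.6, 12.4 and 21.2 CPM in vehicle and 11.9, 4.45 and 18.8 CPM with halofuginone there. Without overlap, 0.962% of all genes were higher and 0.769% lower in that pool.

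Where an mRNA sits on the gradient differed widely among the 10. A pool share is the CPM of a gene in a pool divided by the sum of its CPM over the 3 pools of the same tag. Since each pool is scaled to its own total, it is not a share of molecules. The SD of a share also holds any difference between the cuts of set A and set B. Fosl2 had its largest share in heavy polysomes, 52.0, 58.6 and 54.5% in vehicle, and so did Jun, at 48.3, 54.1 and 53.9%. Both lay above the median heavy share of 42.0% over 9917 genes. Ier2 had 63.2, 57.1 and 57.8% in light polysomes, higher than 99.5% of all genes, and only 13.1, 14.2 and 12.9% in heavy polysomes. Fos (54.8 ± 7.85% light), Ier3 (52.0 ± 0.425%), Egr1 (50.8 ± 10.5%) and Jund (50.5 ± 4.96%; SD, n = 3) were likewise richest in light polysomes, where the median gene had 35.7%. Across 9403 genes the vehicle heavy share was higher at greater coding length (Spearman's rho 0.391, across genes, which are not independent), from a median of 21.5% under 600 coding bases to 47.1% at 2400 or more. Ier3 is in the shortest class and Ier2 in the class of 600 to under 1200 bases, whose median is 40.7%. Jun (334 codons) and Jund (341 codons) had heavy shares of 52.1 ± 3.28% and 15.7 ± 4.97%, without overlap.

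**Figure D3:**
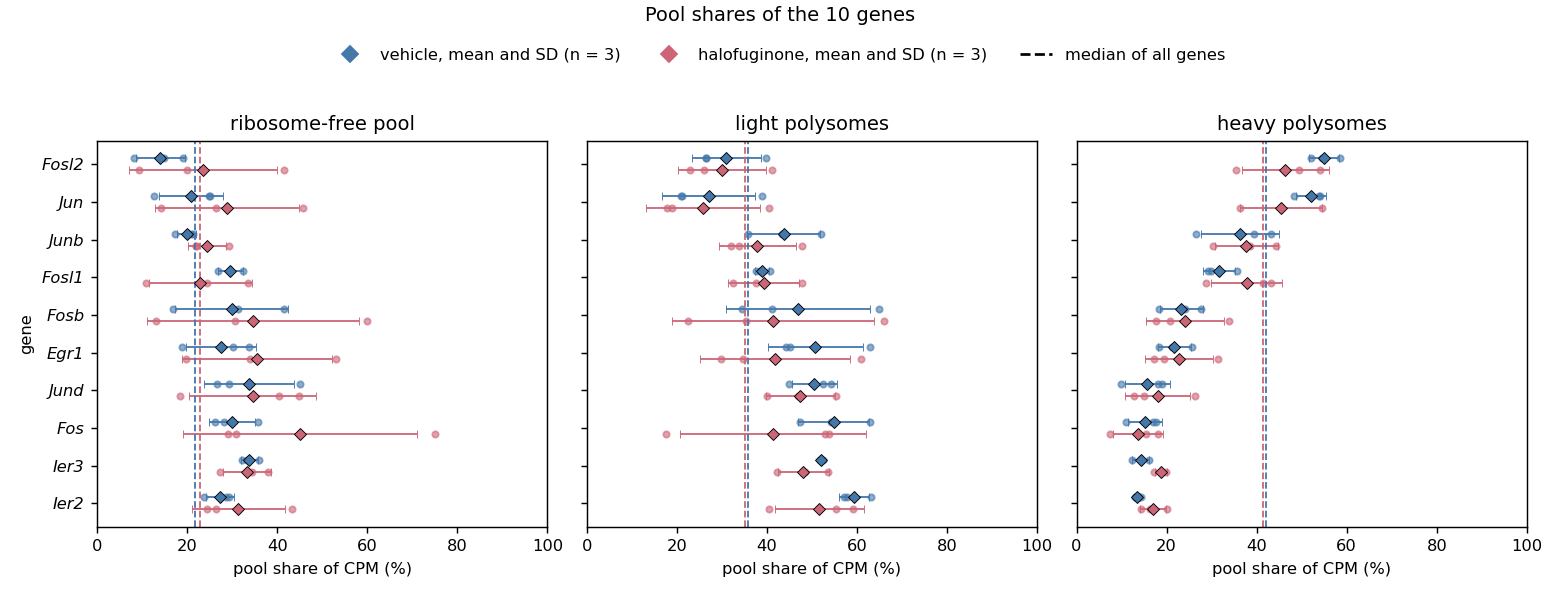
Pool shares of CPM (percent) in the ribosome-free pool, light and heavy polysomes; small points are tags, diamonds with bars are mean and SD of 3, and dashed lines are the medians over all genes. In heavy polysomes Fosl2 and Jun lie to the right of the 42.0% median in vehicle, and Fos, Ier3 and Ier2 are the lowest, at means of 15.2, 14.2 and 13.4%.

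With halofuginone the order of the heavy shares was nearly kept. The mean heavy share went from 55.0 to 46.4% for Fosl2 and from 52.1 to 45.5% for Jun, with overlap, and tag 4 held the lowest value of each (35.5 and 36.3%). Ier3 went from 14.2 ± 1.81 to 18.7 ± 1.37% and Ier2 from 13.4 ± 0.685 to 16.9 ± 2.92%. These were the 2 of 10 heavy shares whose groups did not overlap, against 3.34% of 9917 genes in either direction, each with a two-sided exact permutation p of 0.1, the smallest that 3 against 3 allows. For Fos, tag 4 stood apart, with 75.0% in the ribosome-free pool against 30.9 and 29.1% for the other tags. The median over all genes was 41.5% heavy with halofuginone.

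Heavy polysomes were also tested against the ribosome-free pool. In vehicle 5 of the 10 genes were called, against 29.6% of 12225 genes. Ier2 (log2 fold change -1.83 ± 0.33, edgeR's adjusted p = 0.0047), Jund (-1.93 ± 0.41), Fos (-1.88 ± 0.39) and Egr1 (-1.15 ± 0.36) were lower in heavy polysomes, as were 17.7% of all genes. Fosl2 was higher (1.17 ± 0.39, edgeR's adjusted p = 0.047), as were 11.9%. Ier3 had the largest difference, -2.05 ± 0.74, and missed the threshold (edgeR's adjusted p = 0.064); with the column tag as a block it was called (0.0035). The calls of Fosl2 and Egr1 were lost when any of 5 of the 6 libraries was left out, all but set A of the ribosome-free pool, with adjusted p from 0.0607 to 0.145.

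With halofuginone 4 of the 10 were called, all lower in heavy polysomes, against 21.1% of 12238 genes called and 12.6% called lower. These were Fos (-2.38 ± 0.60, edgeR's adjusted p = 0.021), Jund (-1.67 ± 0.44), Ier2 (-1.63 ± 0.45) and Ier3 (-1.58 ± 0.48). Egr1 (-1.41 ± 0.49, edgeR's adjusted p = 0.063) was called with the block (0.038). All 4 calls were lost without the heavy library of tag 4, and 1 of the 10 remained called without the heavy library of set A or of tag 2 or the ribosome-free library of tag 4. The difference between treatments in this contrast was not called for any of the 10 (0.0% of 13053 genes). With library totals in place of TMM factors the median of all genes moves by 0.80 in vehicle and 0.73 with halofuginone (log2), so these directions are relative to the typical gene.

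The pools also differed from total RNA, most of all for Fos, Ier2 and Egr1. In vehicle, Fos was 13.5 times as high in the ribosome-free pool, 25.8 times in light and 6.58 times in heavy polysomes as in total RNA (ratios of mean CPM). For Ier2 the ratios were 6.97, 15.3 and 3.45, for Egr1 4.21, 7.82 and 3.27, and for Junb 1.80, 3.95 and 3.14. In these 4 genes all 9 pool libraries were above all 3 total RNA libraries, which 2.80% of 10176 genes (those averaging 5 CPM or more) showed. Fosl2 went the other way in the ribosome-free pool, at 0.312 times, and in light polysomes, at 0.668 times. In heavy polysomes it was at 1.21 times. These ratios rest on library totals, with which the median gene lay at a log2 fold change of -0.21 in vehicle light polysomes against total RNA. How the cells were handled between culture and lysis for the gradient is not given in the sources used here, and its part in these ratios was not tested.

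Light polysomes were tested against total RNA after these values had been seen. In vehicle 8 of the 10 were called, all higher, against 54.8% of 12836 genes called and 26.1% called higher. Fos led (log2 fold change 4.90 ± 0.43, edgeR's adjusted p = 0.00016), followed by Ier2 (4.13 ± 0.27), Egr1 (3.16 ± 0.43), Junb (2.18 ± 0.31), Ier3 (1.90 ± 0.49), Jund (1.83 ± 0.18), Fosb (1.38 ± 0.36) and Fosl1 (1.22 ± 0.37). Jun (0.42 ± 0.33) and Fosl2 (-0.39 ± 0.19) were not called. The call of Fosb was lost without the total RNA library of tag 2 or of tag 3 (adjusted p 0.0592 and 0.067), and that of Fosl1 without any total RNA library or without light tag 2 (0.0526 to 0.0794).

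With halofuginone 5 were called, all higher, against 27.5% of 12901 genes called and 11.2% called higher. These were Fos (4.38 ± 1.13, edgeR's adjusted p = 0.027), Ier2 (2.75 ± 0.33), Egr1 (2.25 ± 0.57), Jund (1.63 ± 0.34) and Ier3 (1.52 ± 0.44). With the column tag as a block, of which total RNA and light polysomes share 2, all 5 calls were lost (adjusted p 0.0993 to 0.149). Without the total RNA library of tag 2 or of tag 3, the call of Ier2 remained and the other 4 were lost. Leaving out any light library also cost calls, Fos in each case (adjusted p 0.0531 to 0.091). With halofuginone Fos and Ier2 were the 2 genes with all 9 pool libraries above all 3 total RNA libraries, against 1.18% of 10039 genes.

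**Figure D4:**
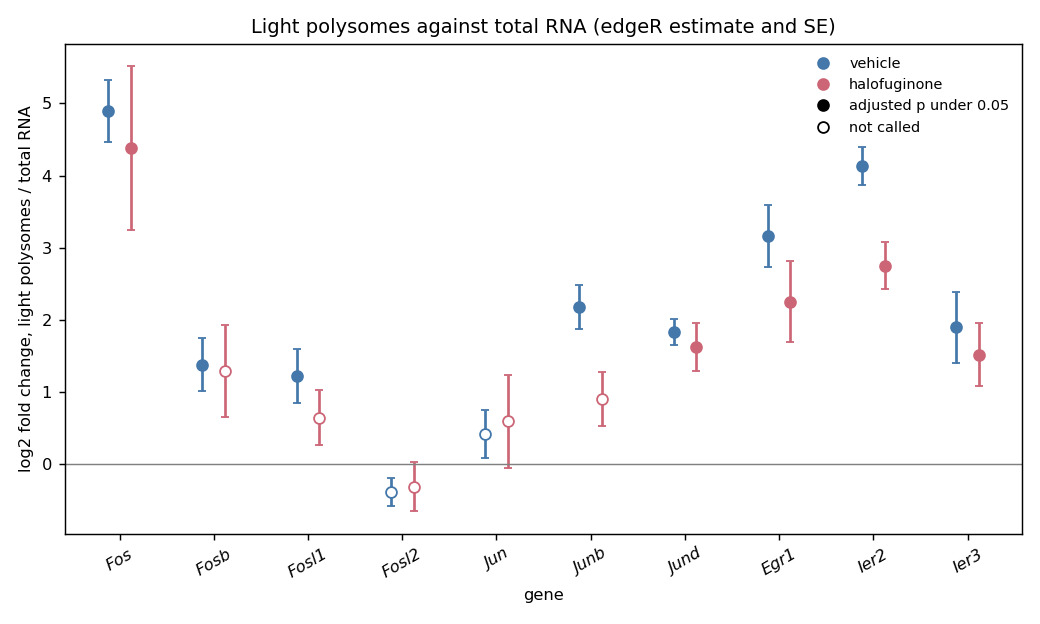
Log2 fold change of light polysomes against total RNA (edgeR estimate with SE) for each gene, vehicle in blue and halofuginone in red; filled points have an adjusted p under 0.05. Fos, Ier2 and Egr1 are the highest in both treatments, at 4.90, 4.13 and 3.16 in vehicle, and only Fosl2 lies below 0.

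The excess over total RNA was smaller with halofuginone for Ier2 and Junb, but the difference did not pass the test. In light polysomes minus total RNA, the halofuginone effect of Ier2 was -1.39 ± 0.38 and that of Junb -1.29 ± 0.50 (log2, edgeR's adjusted p = 1.00; unadjusted p = 0.0034 and 0.025). In heavy polysomes minus total RNA it was -0.85 ± 0.33 for Ier2 and -1.03 ± 0.29 for Junb. Each difference called 0.0% of its 13617 and 13459 genes in edgeR. These contrasts share their total RNA libraries.

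Related genes were counted from 6 lists. In total RNA over all libraries edgeR called no gene of any of them. Of 7 tested other AP-1 partners, 6 lay above 0 with a median log2 fold change of 0.51, against 0.02 over all genes. Atf3, a stress-induced partner, stood at 50.4 ± 33.2 CPM with halofuginone and 8.19 ± 1.69 CPM in vehicle (2.70 ± 0.66, edgeR's adjusted p = 0.267), and Jdp2, a repressive partner, at 53.2 ± 6.75 and 29.5 ± 7.50 CPM. Within set B, 5 of the 7 partners were called higher and none lower, where 33.1% of all genes were higher and 36.9% lower, with Atf3 at 69.6 ± 0.103 and 9.04 ± 1.19 CPM (SD, n = 2). The 19 tested MAP kinases and serum response factors had a median of -0.03 (8 above 0), and the 14 feedback inhibitors a median of -0.02 (7 above 0). Within set B these lists split into 5 higher and 9 lower, and 5 higher and 5 lower, beside 33.1% higher and 36.9% lower over all genes.

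Of 37 tested other immediate early genes in total RNA, 15 lay above 0 with a median of -0.08; Myc (2.15 ± 0.59) and Hbegf (2.54 ± 0.70) had the smallest p. Of 16 tested AP-1 targets of fibroblasts, 7 lay above 0 with a median of -0.36; the protease Mmp3 went from 20.1 ± 2.47 to 5.87 ± 4.54 CPM and Vegfa from 76.7 ± 7.11 to 171 ± 78.0 CPM. Within set B 7 of the 16 targets were called higher and 8 lower, against the same 33.1% and 36.9% of all genes. Of 16 factors of AU-rich element decay, 10 lay above 0 with a median of 0.06, and Zfp36l1, which promotes decay, stood at -0.69 ± 0.27. Within set B 6 of the 16 were called higher and 1 lower, again against 33.1% and 36.9%.

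In light polysomes 10 of 36 tested other immediate early genes lay above 0 between treatments, with a median log2 fold change of -0.58 against -0.68 for the 10 and 0.01 for all genes. Zfp36, a decay factor that binds AU-rich elements and is itself an immediate early gene, went from 171 ± 36.5 to 73.9 ± 21.2 CPM there (-1.14 ± 0.30, edgeR's adjusted p = 0.981). In heavy polysomes 11 of 36 lay above 0, with a median of -0.34 against -0.47 for the 10. In vehicle light polysomes against total RNA, 24 of 37 were called higher and 1 lower, against 26.1% of all genes higher. Cyr61, also called Ccn1 (3.76 ± 0.62) and Zfp36 (3.09 ± 0.21) had large differences there. In vehicle heavy polysomes against the ribosome-free pool none of 35 was called higher and 10 lower, against 11.9% of all genes higher and 17.7% lower, with Zfp36 (-3.31 ± 0.37) and Nfkbia (-2.58 ± 0.38) among them.

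The genes whose log2 CPM over the 24 libraries was most like that of each gene were also read out. For Fos it was Egr1 (Pearson's r = 0.925), and for Ier2 it was H2afx (0.903) and then Egr1 (0.897). Egr1 was most like Fos and Egr2 (0.908), Jund like Map1lc3b (0.976), Fosl2 like Fads1 (0.971) and Jun like Grb14 (0.936). Fosl1 was most like Fxyd5 (0.907), Junb like Ier5 (0.828) and Ier3 like Scand1 (0.873). Among the other 9 genes Fosl1 was most like Ier3 (r = 0.45) and Junb (0.448), with r of -0.017 to Fos and -0.33 to Fosl2. These values describe the 24 libraries, which share treatments, pools and depth, out of 10928 genes; Fosb was left out because it did not reach 5 CPM in any group.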

How the data were processed

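The authors deposited 1 table of whole-number counts per gene symbol for the 24 libraries. The build GRCm38.p5, featureCounts of Subread 1.5.0p3, STAR 2.5.2b and Trimmomatic 0.36 are named per the submitters' processing notes, without their roles, and no source used here gives the strand setting. Columns were matched to groups by treatment and fraction, not to single samples, and 0 columns belonged to no sample of the series.

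From the deposited counts, CPM was computed on each library's total. Each comparison was fitted on its own groups in edgeR 4.0.16 (R 4.3.3, quasi-likelihood test, TMM, default expression filter, Benjamini-Hochberg threshold 0.05 over all genes tested). The fitting code was tried on simulated counts for total RNA, heavy polysomes and heavy minus total RNA alone. The simulation used the same spread for all genes and no sets or tags, so it does not show how the test behaves on these libraries. Alternatives were DESeq2 1.42.0, median-of-ratios factors, library totals, no filter, at least 5 CPM in 3 libraries, the column tag as a block, set B alone and leaving out each library. Same-tag libraries correlated across genes, as deviations from group means, at 0.358, 0.738 and 0.782 for heavy polysomes, at 0.408, 0.709 and 0.819 for light polysomes, at 0.832, 0.853 and 0.937 for the ribosome-free pool, and at 0.239, 0.427 and 0.454 (vehicle) and 0.384, 0.190 and 0.225 (halofuginone) between heavy and ribosome-free pools, so tags pair the pools.

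All 10 genes passed the filter in every comparison. For the 10 genes, a difference fitted over all libraries is given by value only where it is at least 1 SE from 0. Not every such difference is printed, so one that is missing need not be near 0. From each related list the 2 called members with the largest change were picked, or else the 2 with the smallest p. Only members with 5 CPM in a group were eligible, and not every pick is named in the text. The members, lists and comparisons were chosen with earlier results of these data known. No spike-in is mentioned, so values are shares of each library and not amounts per cell. Depth of 10.3 to 25 megacounts limits Fos and Fosb in total RNA most.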

Additional observations from a re-analysis of the deposited data

How the results depend on the processing

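Of the alternative estimates of the 10 genes' log2 fold changes, 775 kept their direction and side of the threshold, 65 lost the call, 30 gained it and 3 reversed. Only differences whose main estimate was at least 1 SE from 0 were counted. The reversed ones were uncalled: heavy against ribosome-free in vehicle of Fosl1 was 0.12 with library totals, and light against total RNA in vehicle of Jun was -0.077 in set B alone and -0.012 to 0.69 with a library left out. Differences within 1 SE of 0 were left out of this count, and some of these reversed as well. That of Fosl1 between treatments in the ribosome-free pool did so in set B alone. Depth limits Fos and Fosb in total RNA, where set B held 5 Fos counts with halofuginone.

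The number of the 10 called in total RNA between treatments was 2 with DESeq2, 9 in set B alone and 0 to 9 with a library left out. For heavy against ribosome-free it was 3 to 6 in vehicle with a library left out. With halofuginone it was 1 with library totals, 1 in set B alone and 0 to 4 with a library left out. For light against total RNA with halofuginone it was 1 to 6 with a library left out. Over all genes, total RNA between treatments gave 515 with DESeq2, 9337 in set B alone and 0 to 8246 with a library left out. Light polysomes gave 39 with DESeq2 and 47 with no filter, and heavy polysomes 78 and 105. Heavy against ribosome-free gave 5677 with library totals, 5524 in set B alone and 1897 to 5844 with a library left out in vehicle, and 4466, 1383 and 688 to 3600 with halofuginone. Light against total RNA with halofuginone gave 5590 in set B alone and 1013 to 5881 with a library left out. The halofuginone effect of heavy minus total RNA gave 1 with DESeq2, 1 with no filter and 0 to 3 with a library left out, that of heavy minus ribosome-free 7 with no filter and 1 in set B alone, and that of light minus total RNA 1 with no filter and 0 to 8 with a library left out. The cause was not tested, except that set B and left-out libraries use fewer samples.

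With the column tag as a replicate block, the calls between treatments were 2 genes for heavy polysomes, 3 for light polysomes and 15 for the ribosome-free pool, none of the 10 among them. In total RNA the tags did not pair the libraries (same-tag correlations across genes 0.395, 0.443 and -0.006, against up to 0.507 for different tags), and the block called 0 genes. Light against total RNA with halofuginone shares only 2 tags, and with the block 0 genes and 0 of the 10 were called. Beside Ier3 and Egr1, given above, the block changed no other call of the 10 between pools.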
